A study of Mus musculus with 37 samples.

Results

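The Hox genes encode homeodomain transcription factors that lie in 4 clusters, Hoxa, Hoxb, Hoxc and Hoxd, and their order along each cluster follows the order of their expression along the body axis. In the embryonic nervous system their RNA marks the hindbrain and the spinal cord, while the forebrain, which gives rise to the cortex, lies in front of the Hox territory. Outside these regions the clusters are held silent by Polycomb complexes, and the trithorax complexes act against that silencing. The members described here were all genes whose symbol in the array annotation was Hox followed by a cluster letter and a number. They were 33 genes with 48 probe sets, out of 18193 genes with a symbol of their own and 45037 probe sets on the array. Hox genes without such a probe set were not analysed here. A further 3 probe sets carried the symbols of several genes, Hoxb8 with Hoxb7 in 1 case and Hoxd4 with Hoxd3 in the others, and were left out.

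The study hybridised cortical RNA of 9-wk-old mice to 37 Affymetrix whole-genome arrays, 1 for each sample, to ask how lowering HDAC4 affects transcription in R6/2 mice, which model Huntington's disease. The genotypes were WT (n = 9), Hdac4HET (n = 9), R6/2 (n = 9) and Dble::R6/2 (n = 10), of both sexes, on a CBA and C57Bl/6 mixed background. R6/2 mice carry a transgene with the mutated N-terminal exon 1 fragment of human HTT, Hdac4HET mice carry 1 null allele of Hdac4, a class IIa histone deacetylase, and Dble::R6/2 mice carry both. The null allele came from another strain, so genotypes with and without it may also differ in the chromosome segment around Hdac4.

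The labels were checked against the data. Hdac4 reached at most 8.02 on the log2 signal scale in arrays with the null allele and at least 8.28 in those without it. Cortical excitatory neuron markers were strong in WT, with 10.09 for Neurod6 and 13.3 for Camk2a, and array medians ran from 6.16 to 6.21. On 6 arrays the sex-linked genes did not match the sex in the label. Markers of the olfactory bulb, the neighbouring forebrain region, stood above every WT array on 8 arrays, 6 of them Hdac4HET and 2 Dble::R6/2, although 1 of the Dble::R6/2 arrays, replicate 9 at 6.07, equalled the highest WT array to the digits given. The mean of the 10 bulb markers ran from 5.86 to 6.07 in WT, from 5.85 to 8.05 in Hdac4HET, from 5.77 to 6.04 in R6/2 and from 5.75 to 6.63 in Dble::R6/2.

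Most Hox probe sets gave no more signal in the cortex than genes of the nose. As a yardstick for background, 81 probe sets for olfactory, vomeronasal and trace amine receptors were used, which are receptors of sensory neurons in the nose and are not known as cortical transcripts. Their median level was 3.62 and their 95th percentile 5.15, although 1 of them, Vmn1r44, reached 7.19. Of the 48 Hox probe sets, 40 had a mean at or under 5.15 in every genotype, and the other 8 were above it in every genotype. Over all probe sets on the array 35.4% lay at or under that level. The Hox means ran from 2.87 to 6.54 with a median of 3.91, against a median of 6.19 over all probe sets. Levels of different probe sets also depend on how well each probe binds, so their order is not an order of RNA amounts.

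For 25 of the 33 genes every probe set was near background by this measure. In the Hoxd cluster, whose posterior members pattern the limbs and digits, all 10 probe sets of 8 genes were near background, between 2.92 and 4.99. In the Hoxa cluster 12 of 16 probe sets of 9 genes were near background, in the Hoxb cluster 9 of 11 probe sets of 9 genes, and in the Hoxc cluster 9 of 11 probe sets of 7 genes. The medians of the probe set means were 3.67 for Hoxa, 4.03 for Hoxb, 4.38 for Hoxc and 3.80 for Hoxd.

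**Figure D1:**
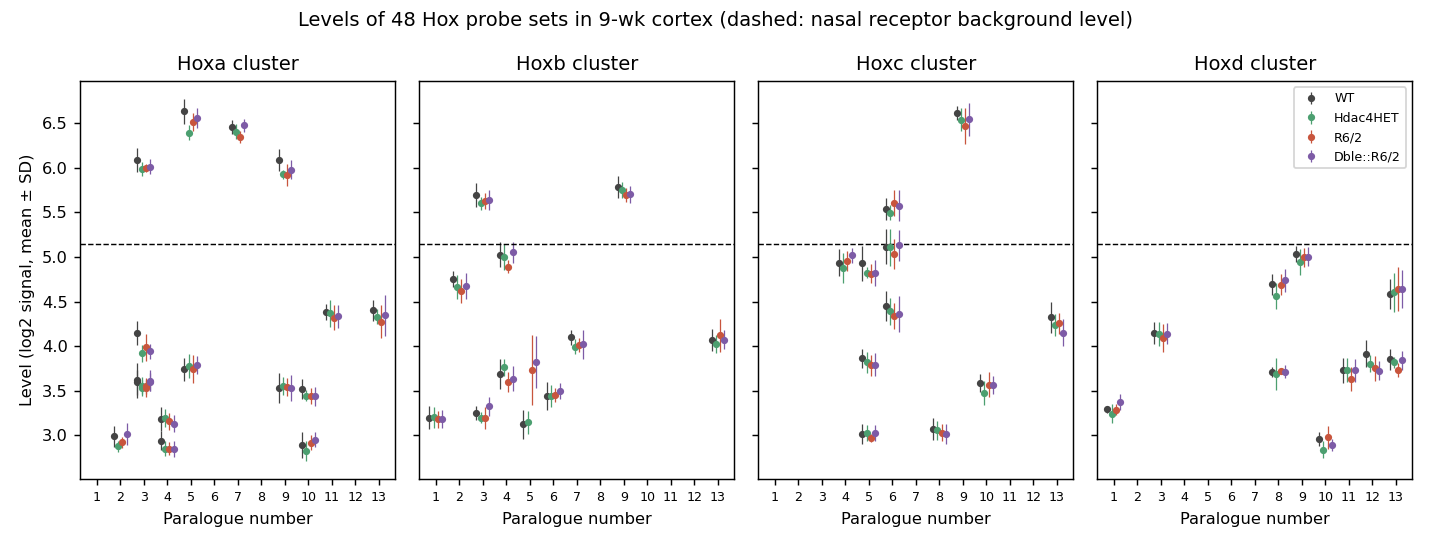
Mean log2 signal with SD (bars) of each Hox probe set in each of the 4 genotypes, in 1 panel per cluster and by paralogue number, with the 95th percentile of the nasal receptor probe sets as a dashed line. The 40 probe sets near background lie under the line at 5.15, and the 8 others lie above it in all genotypes.

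The 8 genes with a probe set above the nasal receptor level were Hoxa3, Hoxa5, Hoxa7, Hoxa9, Hoxb3, Hoxb9, Hoxc6 and Hoxc9. Hoxc9, known from the patterning of thoracic motor neurons, had the highest mean at 6.54. It ran from 6.44 through a median of 6.61 to 6.71 in WT, and its R6/2 arrays from 6.23 through 6.40 to 6.77 overlapped them over most of their range. Hoxa5, a gene of airway and neck development, followed with 6.52 and Hoxa7, a gene of the trunk, with 6.42. Hoxa3, needed for the thymus and parathyroid, had a mean of 6.02, Hoxa9, known from blood stem cells and leukaemia, 5.98, and Hoxb9, a thoracic gene, 5.73. For Hoxa3, Hoxa5, Hoxa9, Hoxb3 and Hoxc6 another probe set of the same gene was near background, so that the brighter signal was not shared by all probe sets of the gene. In Hoxa5 the brighter probe set, of the class that can pair with RNA of other genes, had a mean of 6.52 and the other one a mean of 3.77. Hoxa7, Hoxb9 and Hoxc9 had just 1 probe set each.

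Among all Hox probe sets just 1 passed the test with the transgene, that for Hoxb5, a gene with roles in the neural crest that forms the gut's nervous system. Its only probe set, 1418415_at, lay under the nasal receptor level in every genotype and on every array. In WT it ran from 2.85 through a median of 3.10 to 3.37, and in R6/2 from 3.41 through 3.54 to 4.51. Every R6/2 array, 9 of 9, was above every WT array, and 3 of them, at 4.04, 4.10 and 4.51, stood above the other 6, which ended at 3.63. The mean rose from 3.13 ± 0.16 (SD, n = 9) to 3.73 ± 0.39 (SD, n = 9), a difference of 0.61 on the log2 signal scale (SE 0.118, 95% interval 0.37 to 0.85, limma adjusted p = 6e-05). Because both groups are near background, the difference is given in log2 signal and not as a fold of RNA. In a piece of cortex, more RNA per cell and more cells that hold the RNA cannot be told apart.

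The second comparison of the transgene, Dble::R6/2 against Hdac4HET, uses no array of the first. Hdac4HET arrays ran from 3.01 through 3.09 to 3.40 for Hoxb5 and Dble::R6/2 arrays from 3.37 through 3.74 to 4.33. All but 1 of the 10 Dble::R6/2 arrays, 9, were above every Hdac4HET array. The mean rose from 3.15 ± 0.13 (SD, n = 9) to 3.82 ± 0.29 (SD, n = 10), a log2 signal difference of 0.67 (SE 0.115, 95% interval 0.44 to 0.91, limma adjusted p = 8.63e-06). Averaged over both Hdac4 backgrounds the difference was 0.64 (SE 0.0821, limma adjusted p = 1.92e-08). Of the 19 arrays with the transgene, 18 stood above all 18 arrays without it, and the exception, a Dble::R6/2 array at 3.37, lay just under the highest Hdac4HET array at 3.40. Hoxb5 was 1 of 59 probe sets at or under the nasal receptor level that were called higher in both transgene comparisons. Among these it ranked 18 by the change over both backgrounds.

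**Figure D2:**
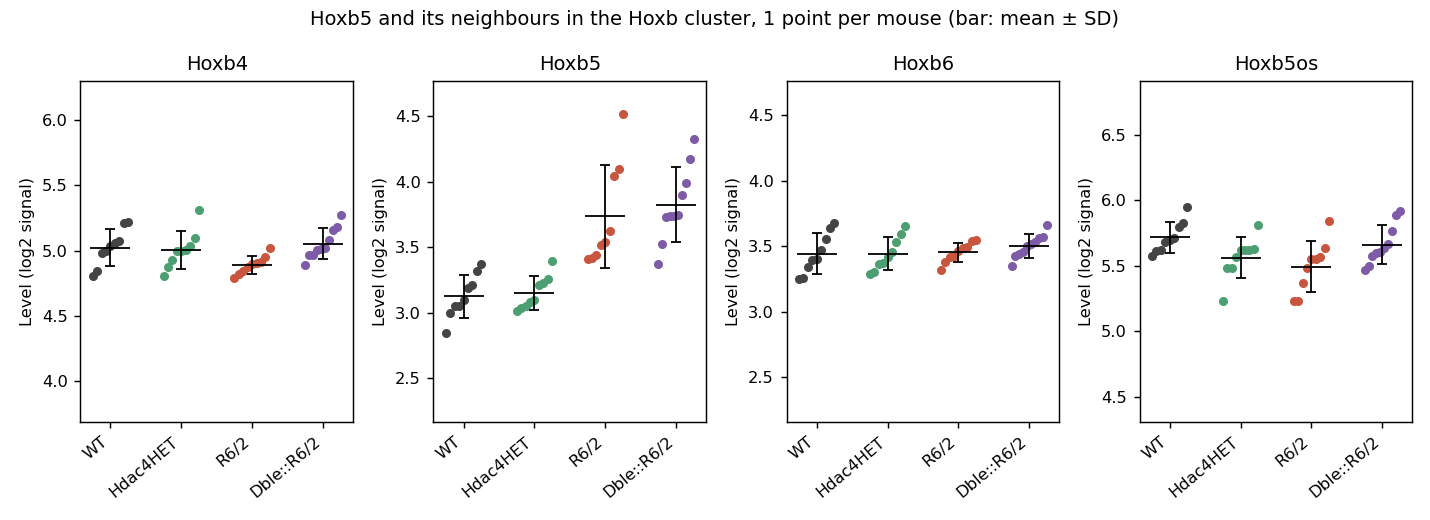
Log2 signal on each of the 37 arrays, by genotype, with the mean and SD of each group. The panels show Hoxb4, Hoxb5, Hoxb6 and the antisense transcript Hoxb5os, each by its brightest probe set. Points within a group are spread by value and have no other order. In the Hoxb5 panel the arrays with the transgene lie at 3.37 or higher and those without it at 3.40 or lower. All arrays of that panel are under the nasal receptor level of 5.15.

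The Hoxb5 difference was seen in females and in males by their labels. Means were 3.12 in WT females and 3.13 in WT males against 3.71 and 3.75 in R6/2, and 3.20 and 3.11 in Hdac4HET against 3.83 and 3.82 in Dble::R6/2. Without the 8 arrays with raised bulb markers, which left 3 Hdac4HET arrays, the difference between Dble::R6/2 and Hdac4HET was 0.58 (SE 0.18, limma adjusted p = 0.0183), and 0.565 (SE 0.175, limma adjusted p = 0.0169) with that Dble::R6/2 replicate 9 kept. Hoxb5 also had the largest spread within genotypes of all Hox probe sets. Its SD was 0.26, against 0.21 for the next, Hoxd13, and a Hox median of 0.12.

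The null allele of Hdac4 did not move Hoxb5 past the test. Hdac4HET and WT differed by 0.02 (95% interval −0.21 to 0.26, limma adjusted p = 0.944), and Dble::R6/2 and R6/2 by 0.09 (95% interval −0.14 to 0.32, limma adjusted p = 0.747). The difference between the transgene effects on the 2 Hdac4 backgrounds was 0.07 (95% interval −0.27 to 0.40, limma adjusted p = 0.862). These intervals do not show that the allele is without effect.

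The count of called Hox probe sets was read against the whole array. A probe set was called where its adjusted p was under 0.05 and its change above 1.3-fold, which is 0.38 on the log2 scale. In R6/2 against WT, 1 of 48 Hox probe sets was called higher, or 2.08%, where 3.05% of all probe sets and 0.891% of those at or under the nasal receptor level were called higher. None was called lower, where 3.03% of all were. For Dble::R6/2 against Hdac4HET, 1 was called higher, against 2.02% of all and 0.602% of the low probe sets, and 0 lower, against 5.07% of all. With both backgrounds averaged the count was again 1 higher, against 2.19% of all. A count of 1 is near these backgrounds, so the Hox genes as a group did not stand apart in how many were called.

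No Hox probe set was called for the Hdac4 allele in limma's test. In Hdac4HET against WT the count was 0, with 8 of 48 at an unadjusted p under 0.05, where 0.291% of all probe sets were called and 16.6% were at that p. For Dble::R6/2 against R6/2 it was 0, with 6 at an unadjusted p under 0.05, against 0.269% and 17% of all. For the difference of the transgene effects between backgrounds it was 0, with 10 at an unadjusted p under 0.05, against 0.251% and 19%, and for the allele over both backgrounds 0, with 4, against 0.0511% and 15.1%.

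**Figure D3:**
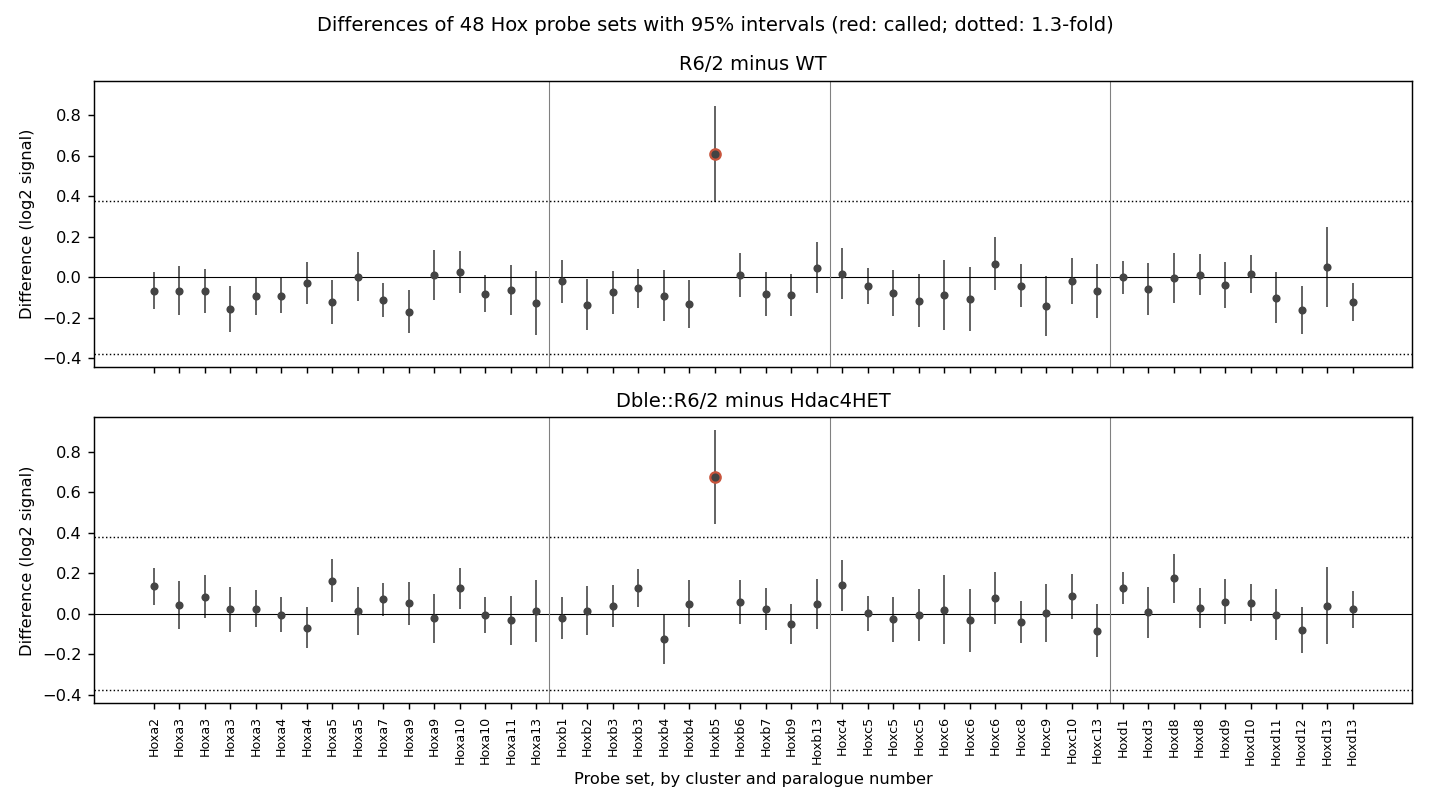
Differences in log2 signal with 95% intervals for the 48 Hox probe sets, by cluster and paralogue number, for R6/2 minus WT (top) and Dble::R6/2 minus Hdac4HET (bottom); dotted lines mark 1.3-fold. Hoxb5, drawn as a red point, is at 0.61 and 0.67, and the other probe sets lie within the dotted lines.

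The other 47 probe sets moved little. Their differences ran from −0.17 to 0.07 in R6/2 against WT and from −0.12 to 0.175 in Dble::R6/2 against Hdac4HET. The 95% bounds of these differences ran from −0.29 to 0.25 and from −0.25 to 0.30, inside 1.3-fold in either direction. In Hdac4HET against WT the differences ran from −0.24 to 0.07, and in Dble::R6/2 against R6/2 from −0.10 to 0.16, with bounds from −0.35 to 0.21 and from −0.23 to 0.28. At signals near background a true change in RNA is compressed, so these bounds hold for the signal and not for the RNA.

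Some of the small differences passed the adjusted p on its own. In R6/2 against WT, 5 Hox probe sets were lower at any size, where 17.6% of all probe sets and 13.1% of the low ones were. Hoxa9 ran from 5.86 through 6.15 to 6.19 in WT and from 5.75 through 5.94 to 6.08 in R6/2, a difference of −0.17 (SE 0.0529, limma adjusted p = 0.0102), and its arrays overlapped. Its dimmer probe set differed by 0.01. The others were Hoxd12, a gene of the digits, with −0.16 (limma adjusted p = 0.0253), a dim Hoxa3 probe set with −0.16 (limma adjusted p = 0.0264), Hoxa7 with −0.11 (limma adjusted p = 0.0292) and the dimmer Hoxd13 probe set with −0.12 (limma adjusted p = 0.0393), the brighter one at 0.05. The other 3 Hoxa3 probe sets differed by −0.09, −0.07 and −0.07 and did not pass. Without WT replicate 1 the adjusted p was above 0.05 for Hoxd12 (0.0759), Hoxa3 (0.0783), Hoxa7 (0.0646) and Hoxd13 (0.0942), with differences of −0.12, −0.12, −0.10 and −0.10, and leaving out several other arrays had the same effect on some of these 4. Over the other alternatives, fits in limma and the methods' t-test, the highest adjusted p was 0.112 for Hoxd12 and 0.116 for this Hoxa3 probe set. For Hoxa7 it was 0.0571 and for the dimmer Hoxd13 probe set 0.229. Hoxa9 kept its adjusted p under 0.05 in every setting run.

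In Dble::R6/2 against Hdac4HET, 7 Hox probe sets were higher at any size, where 21.2% of all probe sets and 5.98% of the low ones were. Besides Hoxb5 they were Hoxd1, which shapes pain-sensing neurons in the mouse, with 0.13 (limma adjusted p = 0.00736), the brighter Hoxa5 probe set with 0.16 (limma adjusted p = 0.0124), Hoxa2, which sets the identity of the second pharyngeal arch, with 0.13 (limma adjusted p = 0.0141), the brighter Hoxd8 probe set with 0.175 (limma adjusted p = 0.0191), a dim Hoxb3 probe set with 0.13 (limma adjusted p = 0.0241) and the dimmer probe set of Hoxa10, a gene of the uterus, with 0.13 (limma adjusted p = 0.0427). The other probe sets of these genes differed by 0.02 for Hoxa5, 0.03 for Hoxd8, 0.04 for Hoxb3 and −0.01 for Hoxa10, and did not pass. None of these 6 passed in R6/2 against WT, and without the arrays with raised bulb markers, where fewer arrays give larger errors, their differences ran from 0.07 for Hoxd1 to 0.13 for Hoxb3, with adjusted p from 0.224 to 0.462. In the mean over both backgrounds Hoxd12, with −0.12 (limma adjusted p = 0.0134), and the dimmer Hoxb4 probe set, with −0.11 (limma adjusted p = 0.0382), were lower at any size, where 20.9% of all probe sets were. The brighter Hoxb4 probe set differed by −0.04 (limma adjusted p = 0.436).

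In Hdac4HET against WT, 2 probe sets were lower at any size, where 0.48% of all were. The brighter Hoxa5 probe set ran from 6.38 through 6.70 to 6.77 in WT and from 6.27 through 6.37 to 6.55 in Hdac4HET, overlapping, with a difference of −0.24 (SE 0.0538, limma adjusted p = 0.0188). The other Hoxa5 probe set had group means of 3.74 and 3.78. The dim Hoxa3 probe set differed by −0.22 (limma adjusted p = 0.0357). Without the arrays with raised bulb markers, which left 3 Hdac4HET arrays and larger errors, the differences stayed at −0.22 for Hoxa5 (SE 0.0811, limma adjusted p = 0.465) and −0.26 for Hoxa3 (SE 0.0865, limma adjusted p = 0.412). In Dble::R6/2 against R6/2 the lowest p values belonged to Hoxa7, with 0.13 (limma adjusted p = 0.0682), and the brighter Hoxb4 probe set, with 0.16 (limma adjusted p = 0.122), while the dimmer one differed by 0.04. For the difference of the transgene effects they belonged to Hoxa5, with 0.28 (limma adjusted p = 0.0504), and Hoxa7, with 0.18 (limma adjusted p = 0.0827), and for the allele over both backgrounds to the dim Hoxa3 probe set, with −0.13 (limma adjusted p = 0.0899), and Hoxd10, a gene of lumbar motor neurons, with −0.10 (limma adjusted p = 0.12).

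A slight downward lean against WT was shared with the nasal receptors. In R6/2 against WT the Hox median was −0.07, with 37 of 48 differences below 0, and the nasal receptor median was −0.06, with 64 of 81 below 0, against −0.02 for all probe sets. In Hdac4HET against WT the medians were −0.06 for the Hox genes and −0.06 for the nasal receptors. After quantile normalization between arrays the Hox medians were −0.03 and −0.02, so the lean shrank with the scaling. It was of the size seen for genes that the cortex is not known to express. Both comparisons share the WT arrays. The Hox differences below 0 were 12 of 48, or 25%, in Dble::R6/2 against R6/2, where 44.6% of all probe sets and 27 of 81 nasal receptor probe sets were. In Dble::R6/2 against Hdac4HET they were 15 of 48, or 31.2%, where 44% of all and 30 of 81 nasal receptor probe sets were. WT had the highest mean for 24 of 48 Hox probe sets, or 50%, against 55.6% of nasal receptor and 31.4% of all probe sets.

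No neighbour of Hoxb5 was called with it. On the chromosome it lies between Hoxb6 and Hoxb4, with the microRNA gene Mir10a between Hoxb5 and Hoxb4. In R6/2 against WT, Hoxb6 differed by 0.01, Hoxb7 by −0.08, the 2 Hoxb4 probe sets by −0.13 and −0.09, and the 2 Hoxb3 probe sets by −0.07 and −0.05. In Dble::R6/2 against Hdac4HET, Hoxb6 differed by 0.06, Hoxb7 by 0.02, the Hoxb4 probe sets by 0.05 and −0.12, and the Hoxb3 probe sets by 0.04 and 0.13, the last with an adjusted p under 0.05. None of these was called. The other genes of paralogue group 5, which share the most similar homeodomains, were not called either: in R6/2 against WT Hoxa5 differed by −0.12 and 0.00, and the Hoxc5 probe sets by −0.12, −0.08 and −0.04. For Dble::R6/2 against Hdac4HET the Hoxa5 values were 0.16 (limma adjusted p = 0.0124) and 0.02, and those of Hoxc5 lay between −0.03 and 0.00.

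The antisense transcript Hoxb5os, which overlaps Hoxb5 on the opposite strand, had 1 probe set of its own. It ran from 5.57 through 5.70 to 5.94 in WT and from 5.23 through 5.55 to 5.84 in R6/2, so the groups overlapped. The difference was −0.22 (SE 0.0738, limma adjusted p = 0.014), opposite in sign to that of Hoxb5 and short of 1.3-fold. In Dble::R6/2 against Hdac4HET it was 0.10 (limma adjusted p = 0.305), and the difference between the backgrounds was 0.32 (limma adjusted p = 0.0862).

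Since Hox genes mark hindbrain and spinal cord, markers of those regions were examined beside Hoxb5. Of 10 measured hindbrain markers, 1 was called, and higher, in both transgene comparisons. This was Tph2, the enzyme that makes serotonin in the raphe nuclei, which ran from 3.71 through 3.97 to 4.35 in WT and from 4.19 through 4.48 to 4.76 in R6/2. Its difference was 0.47 (SE 0.0911, limma adjusted p = 6.79e-05), and 0.43 (limma adjusted p = 0.000141) in Dble::R6/2 against Hdac4HET, again near background in all genotypes. Without the 7 arrays whose bulb markers were over 0.1 above WT the second difference was 0.37 (limma adjusted p = 0.0238), just short of 1.3-fold. Slc6a4, the serotonin transporter of the same neurons, was at 5.21 in WT and 5.12 in R6/2, and Slc6a5, the glycine transporter of brainstem neurons, at 4.28 and 4.44. At any size, 1 hindbrain marker was higher and 3 were lower in R6/2 against WT, where 17.6% of all probe sets and 13.1% of the low ones were lower. In Dble::R6/2 against Hdac4HET 2 were higher and 0 lower, where 21.2% of all and 5.98% of the low probe sets were higher at any size. The list medians were −0.05 and 0.07. The mean over the hindbrain markers ran from 5.04 to 5.26 in WT and from 5.11 to 5.20 in R6/2, and from 5.02 to 5.16 in Hdac4HET and from 5.12 to 5.32 in Dble::R6/2. Of 7 spinal cord markers 0 were called in either comparison in limma's test, with the list mean from 4.70 to 4.96 in WT and from 4.59 to 5.01 in R6/2. Of the other marker lists, in R6/2 against WT and in Dble::R6/2 against Hdac4HET respectively, 2 and 2 of 6 cortical excitatory neuron markers were called lower, Camk2a and Cux2 in both. Of 7 cerebellar markers 0 and 1 were called, lower; of 7 blood cell markers 1 was called higher and then 3 lower; of 10 vessel and meningeal markers 1 was called higher and then 0; and of 7 choroid plexus markers 0 and then 1, higher. Over all probe sets, 3.05% and 2.02% were called higher in these comparisons, and 3.03% and 5.07% lower. Whether RNA of other brain regions has a part in the Hoxb5 signal was not tested.

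The Polycomb genes, which keep Hox clusters silent, were well above background, and single members rose with the transgene. Here and in the next lists a gene was counted by its brightest probe set. Of the 11 measured genes of Polycomb repressive complex 2, which places the H3K27 methyl mark, 2 were called higher in R6/2. Over all probe sets 3.05% were called higher in that comparison and 2.02% in Dble::R6/2 against Hdac4HET. At any size 5 genes of the list were higher and 1 lower in each of these comparisons. Eed, the subunit that reads the mark, ran from 8.34 through 8.48 to 8.67 in WT and from 8.73 through 8.94 to 9.01 in R6/2, without overlap. It rose by 0.41 (SE 0.0434, limma adjusted p = 9.15e-10), and Phf1, which guides the complex to chromatin, by 0.43 (limma adjusted p = 9.97e-10). Against Hdac4HET, 1 rose in Dble::R6/2, Phf1, by 0.43 (limma adjusted p = 6.62e-10), and Eed differed by 0.21 (limma adjusted p = 7.8e-05), short of 1.3-fold. Ezh2, the enzyme of the complex, differed by 0.15 and −0.01, and the list medians were 0.08 and 0.01 against −0.02 and 0.02 for all probe sets.

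Of 17 measured genes of Polycomb repressive complex 1, which compacts marked chromatin, 1 was called higher in R6/2, where 3.05% of all probe sets were. Bmi1, a core subunit, ran from 9.54 through 9.59 to 9.65 in WT and from 9.99 through 10.07 to 10.18 in R6/2, far from overlap, and rose by 0.48 (SE 0.0298, limma adjusted p = 7.15e-16). Between Dble::R6/2 and Hdac4HET it differed by 0.33 (limma adjusted p = 1.19e-11), short of 1.3-fold, while Cbx8, a reader of the H3K27 mark, rose by 0.44 (limma adjusted p = 3.65e-08). Cbx8 differed by 0.376 (limma adjusted p = 1.43e-06) in R6/2 against WT, just short of 1.3-fold, which is 0.379. The share of all probe sets called higher in Dble::R6/2 against Hdac4HET was 2.02%. At any size 10 genes of the list were higher and 2 lower in R6/2 against WT, and 10 higher and 1 lower in Dble::R6/2 against Hdac4HET, with list medians of 0.19 and 0.17. Among all probe sets above the nasal receptor level, 30.7% were higher and 20% lower at any size in the first comparison, and 29.5% and 20.8% in the second.

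By their brightest probe sets, the genes that act against Polycomb did not pass the fold threshold. Of 12 genes of the trithorax complexes and H3K27 demethylases, 0 were called in either comparison in limma's test, while 8 and 7 were higher at any size and 0 lower. The shares of all probe sets called were 3.05% and 2.02% higher, and 3.03% and 5.07% lower. Among all probe sets above the nasal receptor level, 30.7% and 29.5% were higher at any size, and 20% and 20.8% lower. Ash2l and Rbbp5, core subunits of the H3K4 methyltransferases, differed by 0.29 (limma adjusted p = 1.45e-07) and 0.27 (limma adjusted p = 4.64e-10) in R6/2 against WT. The second comparison gave 0.33 and 0.27. The list medians were 0.15 and 0.12. Of all 29 probe sets of these genes, 1 was called lower in Dble::R6/2 against Hdac4HET, and it was not the brightest of its gene.

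**Figure D4:**
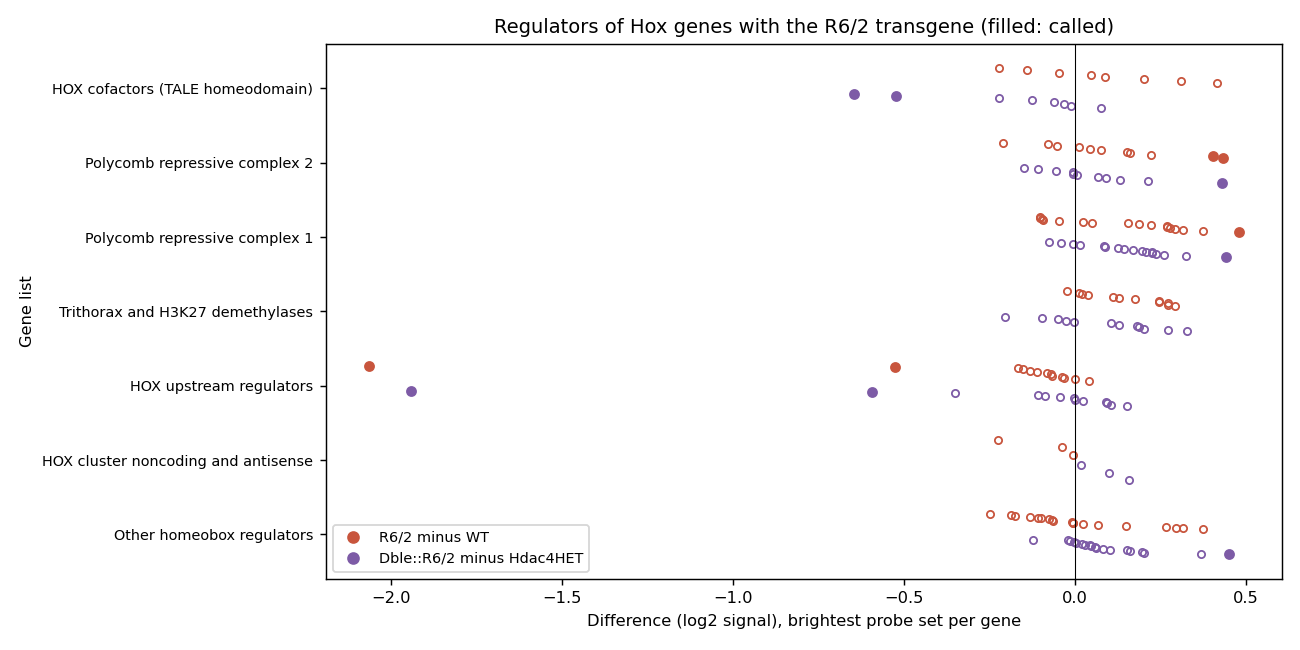
Differences in log2 signal for the genes of each list of Hox regulators, 1 point per gene, for R6/2 minus WT (orange) and Dble::R6/2 minus Hdac4HET (purple); filled points were called. The 2 points near −2 are Egr2, and the Polycomb repressive complex 1 genes have medians of 0.19 and 0.17.

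Of 13 measured genes that act upstream of the Hox clusters in the embryo, 2 fell in R6/2 and 2 fell in Dble::R6/2 against Hdac4HET. The shares of all probe sets called lower were 3.03% and 5.07%. Egr2, the hindbrain factor Krox20 and in the adult cortex a gene induced by neuronal activity, ran from 5.54 through 7.67 to 8.58 in WT and from 4.13 through 5.13 to 6.81 in R6/2. The groups overlapped because of a wide spread within each, and the means differed by −2.06 (SE 0.4, limma adjusted p = 6.33e-05), with −1.94 (limma adjusted p = 0.000102) in the second comparison. Cyp26b1, which breaks down retinoic acid, an inducer of Hox genes, differed by −0.53 (limma adjusted p = 4.56e-06) and by −0.35 (limma adjusted p = 0.000938), short of 1.3-fold in the second. Rarb, a retinoic acid receptor, differed by −0.07 (limma adjusted p = 0.701) and by −0.59 (limma adjusted p = 0.00021). Without the arrays with raised bulb markers, 1 gene of the list was called in the second comparison, Egr2. The list medians were −0.08 and 0.00.

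The HOX cofactors, TALE homeodomain proteins of the Pbx, Meis and Pknox families that bind DNA with HOX proteins, held 2 genes called in the comparisons with Hdac4HET, where the bulb markers also differed. Of 8 measured, 0 were called by their brightest probe set in R6/2 against WT in limma's test, where Meis1 differed by 0.42 (limma adjusted p = 0.0561). Of all 20 probe sets of these genes, 1 was called higher there, as were 3.05% of all probe sets on the array. In Hdac4HET against WT, where 0.275% of all probe sets were called higher, 2 were higher, Pbx3 by 0.90 (limma adjusted p = 0.026) and Meis2 by 0.49 (limma adjusted p = 0.0407), and in Dble::R6/2 against Hdac4HET both were lower, by −0.64 (limma adjusted p = 0.0133) and −0.52 (limma adjusted p = 0.000713). In the same comparisons 6 of the 10 bulb markers were higher and 6 lower. The share of all probe sets called lower in Dble::R6/2 against Hdac4HET was 5.07%. Pbx3 on the Hdac4HET arrays ran from 8.13 through 9.22 to 10.28, a wider range than from 8.02 through 8.44 to 8.87 in WT. Without the arrays with raised bulb markers neither gene was called. In Hdac4HET against WT the differences were then −0.07 (SE 0.171) for Pbx3 and −0.07 (SE 0.105) for Meis2. In Dble::R6/2 against Hdac4HET they were 0.23 (SE 0.174) and −0.04 (SE 0.107). Without the same arrays Meis1 was called higher in both transgene comparisons, by 0.42 (limma adjusted p = 0.00643) and 0.59 (limma adjusted p = 0.0123).

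Homeobox genes outside the clusters that mark hindbrain, spinal cord or midbrain were, like the Hox genes, mostly near background, 14 of 19 measured. In R6/2 against WT 0 were called in limma's test, and in Dble::R6/2 against Hdac4HET 1 was, Irx5, which ran from 3.45 through 3.68 to 3.83 in Hdac4HET and from 3.86 through 4.14 to 4.47 in Dble::R6/2, without overlap. Its difference was 0.45 (SE 0.0758, limma adjusted p = 6.76e-06), and in R6/2 against WT it was 0.32 (limma adjusted p = 0.00121), short of 1.3-fold. The share of all probe sets called higher in Dble::R6/2 against Hdac4HET was 2.02%. Apart from Hoxb5os the measured antisense genes of the clusters were Hoxa11os and Hoxd3os1, both near background, and 0 of the 3 were called in either comparison in limma's test.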

How the data were processed

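The authors deposited log2 expression values, 1 column for each of 37 cortex arrays, after quality control with RACE; for the summary and normalisation of probes, the method is not stated in the labels or the paper. The paper's methods describe leaving out arrays, but the labels do not name them, so all 37 were used as deposited, each as a separate sample. Precision is limited by how many arrays there are. Genes were named from the platform annotation, and 48 of 48 Hox probe sets matched RefSeq (GRCm38.p6) by Entrez ID, which also gave the gene order.

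All 45037 probe sets were fitted with limma (version 3.58.1, R 4.3.3), with a trend in eBayes, over all arrays and genotypes. Benjamini-Hochberg adjustment covered all probe sets, and a call needed an adjusted p under 0.05 and more than 1.3-fold. R6/2 minus WT and Hdac4HET minus WT share the WT arrays, and likewise other pairs share theirs. The script was tested on simulated data. Labels do not say whether samples came from separate litters.

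Members and lists were chosen with earlier results of these data known. Named with values were Hox probe sets called, those at adjusted p under 0.05 in either transgene comparison, the 6 genes of highest mean level, the 2 of lowest p in each comparison, other probe sets of a named gene, and, of each regulator list, up to 4 called members or else the 2 of lowest p; neighbours, group 5 paralogues and genes called in an alternative were named after their values were seen. Alternatives were the background level, quantile normalization, array weights, sex, the replicate block, the samples fitted, filters, no fold threshold, the methods' t-test and leaving out arrays. Plots used Python 3.11.15 and matplotlib 3.10.9.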

Additional observations from a re-analysis of the deposited data

Results flagged for a closer look

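In the Dble::R6/2 group the Hoxb9 level of replicate 9 was 5.932, apart from the other 9 arrays, whose highest was 5.735 and lowest 5.58. It was the only 1 of 68 groups of arrays examined over 17 Hox probe sets, and chance alone flags about 1 in 20 such groups. The sex-linked genes of this array did not match its label, and the part of that in the Hoxb9 value was not tested.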

How the results depend on the processing

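Hoxb5 was called in both transgene comparisons under every alternative that tested it. With each array left out in turn its difference ran from 0.51 to 0.65 in R6/2 minus WT, from 0.62 to 0.72 in Dble::R6/2 minus Hdac4HET and from 0.59 to 0.67 over both backgrounds, and the number of Hox probe sets called stayed at 1, 1 and 1, and at 0 in the comparisons of the Hdac4 allele. The highest adjusted p over the other alternatives was 0.00313 in the first comparison, by the methods' t-test, and 0.0183 in the second, without the arrays with raised bulb markers. Tested among only the probe sets above the nasal receptor level, 0 Hox probe sets were called in each transgene comparison, since that filter removes Hoxb5. With no fold threshold, 6 were called in R6/2 minus WT, 2 in Hdac4HET minus WT, 7 in Dble::R6/2 minus Hdac4HET and 3 for the transgene over both backgrounds. With the 25th percentile of all probe sets, 4.47, as the background level, 32 Hox probe sets and 18 whole genes were near background in place of 40 and 25.

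Same-numbered samples were not paired: of 54 same-number pairs 14 correlated over 0.1, and the median was 0.01. With the replicate block Hoxb5 differed by 0.61 in R6/2 minus WT and 0.71 in Dble::R6/2 minus Hdac4HET, and the counts of Hox probe sets called were unchanged at 1 and 1.

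A further setting, leaving out only the 7 arrays with bulb markers over 0.1 above every WT array, and both settings for the regulator lists, were chosen after seeing the data. With it Hoxb5 differed by 0.565 in Dble::R6/2 minus Hdac4HET and the counts of Hox probe sets called did not change. Without the arrays with raised bulb markers, called cofactors were 1 in R6/2 minus WT (Meis1), 0 in Hdac4HET minus WT and 1 in Dble::R6/2 minus Hdac4HET (Meis1). In the last comparison Polycomb repressive complex 1 had 2 (Bmi1, Cbx8), upstream regulators 1 (Egr2) and other homeobox genes 2 (Irx5, En2), and the same counts, 1, 0, 1, 2, 1 and 2, were found without the 7 arrays alone. Without the arrays against their labelled sex, called cofactors were 1 (Meis1), 0 and 0 in those 3 comparisons, Polycomb repressive complex 1 had 2 (Bmi1, Cbx8) in R6/2 minus WT, and other homeobox genes 2 (Irx5, En2) in Dble::R6/2 minus Hdac4HET. The causes were not tested. The t-test and the fit on only the genotypes compared were not run for the interaction and the pooled comparisons. At signals near background a change in RNA too small to raise the signal is not detectable, and the number of arrays sets the error, with a median SE of the Hox differences of 0.0563 in R6/2 minus WT, 0.0548 in Dble::R6/2 minus Hdac4HET and 0.0786 for the interaction.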
